A study of Mus musculus with 15 samples.

Results

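Atg9b, Ly6d, Msx1, Rgcc, Krt23 and Emp2 are 6 genes that rise strongly in mouse jejunal epithelium when the tumour suppressor Apc is lost, and the values below show how much of that rise each kept when Brg1 was lost with it. The 6 genes were picked by their difference between Apc deficient and control arrays, so that difference is described here without a test. They hold 7 of the 25695 probes on the arrays, with 2 probes for Ly6d and 1 for each other gene, and 6 of the 16592 genes that carried a symbol. Ordered by the size of that difference, Atg9b, Msx1, Rgcc and Krt23 stood at ranks 2 to 5 among all genes, Emp2 at rank 11 and Ly6d at rank 26. At the lower edge the values lay close together, 2.69 on the log2 scale for Ly6d, 2.76 for Tlcd3a just above it and 2.68 for Slc7a5 just below it.

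Gene expression was measured on 15 single-colour bead arrays, with RNA from jejunal epithelium scraped off the muscle wall. Brg1-Apc deficient mice carried VillinCreERT2 with floxed alleles, Apc fl/fl and Brg1 fl/fl (n = 4). Apc deficient mice carried VillinCreERT2 with Apc fl/fl and Brg1 +/+ (n = 3), Brg1 deficient mice carried VillinCreERT2 with Brg1 fl/fl (n = 4), and controls were negative for VillinCreERT2 (n = 4). VillinCreERT2 is a Cre recombinase driven by the Villin promoter of gut epithelium and switched on by tamoxifen. Tamoxifen was given to every mouse, controls included, as 4 daily doses of 80 mg/kg, and jejunum was sampled on day 4 from induction. Because the controls lacked Cre, an effect of active Cre cannot be told apart from gene loss in any difference from control. The labels do not give the age of the mice or which floxed alleles the controls carried.

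Apc is a scaffold protein needed for the breakdown of beta-catenin. Without it, beta-catenin accumulates and activates genes with TCF and LEF factors, which in the intestine normally happens in the crypts. Brg1, the product of Smarca4, is an ATPase of the SWI/SNF complexes, which move nucleosomes and open chromatin. Of the 6 genes, Msx1 encodes a homeobox transcription factor of limb, tooth and face development, and Rgcc encodes a regulator of the cell cycle that binds the kinase CDK1. Atg9b encodes a membrane protein of the ATG9 family, which supplies lipid to growing autophagosomes. Krt23 encodes a type I keratin of epithelial intermediate filaments. Emp2 encodes a tetraspan membrane protein of the PMP22 family, and Ly6d encodes a small cell surface protein of the Ly6 family, held by a lipid anchor.

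Promoters of 5 of the 6 genes were matched in RefSeq (assembly GRCm38.p6), each running from 250 bases before the gene start to 50 after it. Those of 4 genes are shown because they span the range of responses: Krt23 kept most of its rise without Brg1, Atg9b had the highest difference of the 6, Rgcc had, among the other 5 genes, the array profile most like that of Atg9b, and Emp2 kept least over control. They read 5′ to 3′ on the strand of the gene, and capitals mark matches on either strand to CCAAT or to the GC box GGGCGG, whose matches can overlap.
Krt23, chr11:99493071-99493370, minus strand: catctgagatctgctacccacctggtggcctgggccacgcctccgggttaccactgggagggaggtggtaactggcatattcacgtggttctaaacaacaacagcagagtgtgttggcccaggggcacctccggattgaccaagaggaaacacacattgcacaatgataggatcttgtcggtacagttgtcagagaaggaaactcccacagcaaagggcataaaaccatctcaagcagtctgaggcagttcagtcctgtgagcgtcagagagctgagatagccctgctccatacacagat
Atg9b, chr5:24392094-24392393, minus strand: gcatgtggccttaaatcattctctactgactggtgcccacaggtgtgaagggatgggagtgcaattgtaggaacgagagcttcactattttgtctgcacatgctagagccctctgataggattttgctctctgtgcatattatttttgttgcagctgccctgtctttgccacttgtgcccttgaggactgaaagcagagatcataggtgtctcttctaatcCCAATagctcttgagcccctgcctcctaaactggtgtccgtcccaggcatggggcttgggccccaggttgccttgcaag
Rgcc, chr14:79301586-79301885, minus strand: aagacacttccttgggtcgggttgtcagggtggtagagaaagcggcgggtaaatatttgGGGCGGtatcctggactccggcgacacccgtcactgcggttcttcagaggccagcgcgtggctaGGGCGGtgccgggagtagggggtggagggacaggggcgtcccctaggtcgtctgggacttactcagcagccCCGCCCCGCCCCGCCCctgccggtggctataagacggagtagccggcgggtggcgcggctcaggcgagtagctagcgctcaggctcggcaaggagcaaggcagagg
Emp2, chr16:10313919-10314218, minus strand: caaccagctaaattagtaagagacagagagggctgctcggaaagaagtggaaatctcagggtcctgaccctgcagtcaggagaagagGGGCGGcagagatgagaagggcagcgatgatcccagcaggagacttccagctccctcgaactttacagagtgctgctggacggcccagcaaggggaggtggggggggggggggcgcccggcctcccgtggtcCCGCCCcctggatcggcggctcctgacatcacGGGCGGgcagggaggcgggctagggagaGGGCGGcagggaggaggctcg

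These windows differed in base composition. The Krt23 window held 6 CpG dinucleotides and the Atg9b window 2, while the Rgcc window held 26 and the Emp2 window 16, and the median of 32851 promoters was 7 (quartiles 3 and 20). The GC box was found at 5 positions in the Rgcc window and 4 in the Emp2 window, and 35.7% of all promoters held at least 1. Atg9b had 1 match to CCAAT, which 37.4% of promoters held. The Msx1 window (chr5:37824536-37824835, minus strand) held 29 CpG dinucleotides, 1 GC box and 2 CCAAT matches. No member window held TATAAA, present in 13.6% of promoters, or a TCF and LEF word, searched on both strands as CTTTG followed by AA, AT, TA or TT, which 16.9% of promoters held. In the same annotation Atg9b overlaps Nos3, the endothelial nitric oxide synthase gene, and Msx1 overlaps Msx1os, which was not measured here. Signal from both strands of such a pair cannot be told apart unless the probe is strand specific. Nos3 was near background, with means of 5.65 in Brg1-Apc deficient, 5.95 in Apc deficient, 5.67 in Brg1 deficient and 5.55 in control mice, and the brightest of its 3 probes was not called with Apc loss (0.40, SE 0.29, adjusted p = 0.487).

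All values are the log2 expression values deposited by the authors. Array medians lay between 5.59 and 5.90, so a group mean at or under 5.90 is close to background and the size of a difference from it is uncertain. Smarca4, the gene of Brg1, followed the labels, with 6.08 ± 0.06 in Brg1-Apc deficient and 8.15 ± 0.26 in Apc deficient mice, and with 6.20 ± 0.14 in Brg1 deficient and 7.55 ± 0.17 in control mice (SD). The array of Brg1 deficient replicate 4 was unlike the rest, with a narrower interquartile range (1.23, other arrays 1.89 to 2.56) and a lower mean correlation with its group (0.893, other arrays 0.929 to 0.974). Slide 1 held replicates 1 and 2 of every group and slide 2 the rest. Each genotype kept the same places on a slide, so place and genotype cannot be told apart. Differences are log2 differences with limma's standard error, and adjusted p-values are from limma with Benjamini-Hochberg adjustment over all 25695 probes, called under 0.05. In bulk tissue, fewer cells of a type and less RNA per cell cannot be told apart.

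Msx1, the transcription factor, was high in both groups without Apc and at background in both groups with it. Its values were 7.96, 9.53, 7.90 and 8.06 in Brg1-Apc deficient mice and 10.57, 9.11 and 11.00 in Apc deficient mice. They were 5.33, 5.66, 6.04 and 5.83 in Brg1 deficient mice and 5.64, 5.55, 5.98 and 5.84 in control mice. Replicate 2 of the Brg1-Apc deficient mice was above the lowest Apc deficient array, so these 2 groups overlapped, while both lay wholly above the 2 groups with Apc. Msx1 was 22.2-fold higher in Apc deficient than in controls (log2 4.47, SE 0.41). Without Brg1, it rose 6.28-fold with Apc loss (Brg1-Apc deficient minus Brg1 deficient 2.65, SE 0.38, adjusted p = 0.000532).

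Rgcc, the cell cycle regulator, split into 3 separate levels. Its values were 8.33, 8.40, 8.50 and 8.07 in Brg1-Apc deficient mice and 11.48, 11.48 and 10.81 in Apc deficient mice. Brg1 deficient mice had 5.69, 6.57, 6.14 and 6.31, and control mice had 7.26, 6.94, 6.03 and 7.41. Every Brg1-Apc deficient array lay below every Apc deficient array and above every array with Apc. Rgcc was 20.3-fold higher in Apc deficient than in controls (log2 4.34, SE 0.30) and rose 4.43-fold with Apc loss where Brg1 was lost too (2.15, SE 0.28, adjusted p = 0.000258).

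Atg9b, the autophagy gene, had the highest difference of the 6 and also stood at an intermediate level without both genes. Brg1-Apc deficient mice had 6.70, 7.77, 7.58 and 7.02, and Apc deficient mice had 10.46, 10.21 and 11.02. Brg1 deficient mice had 5.46, 5.07, 5.24 and 5.57, and control mice had 5.81, 5.94, 5.55 and 5.81, all near background. The groups without Apc overlapped neither each other nor the groups with Apc. Atg9b was 27.6-fold higher in Apc deficient than in controls (log2 4.79, SE 0.26), and without Brg1 it rose 3.81-fold with Apc loss (1.93, SE 0.24, adjusted p = 0.000177).

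Krt23, the keratin, was the brightest of the 6 genes and kept most of its log2 rise when Brg1 was lost as well. Its Brg1-Apc deficient mean was 1.77-fold below its Apc deficient mean, and the arrays of these groups did not overlap. It measured 11.31, 11.51, 11.71 and 10.95 in Brg1-Apc deficient mice and 12.18, 12.26 and 12.13 in Apc deficient mice. It measured 8.47, 7.12, 8.07 and 7.41 in Brg1 deficient mice and 8.31, 7.45, 8.07 and 8.33 in control mice. The arrays without Apc lay between 10.95 and 12.26 and those with Apc between 7.12 and 8.47. Krt23 was 17.8-fold higher in Apc deficient than in controls (log2 4.15, SE 0.30), and without Brg1 it rose 12.2-fold with Apc loss (3.60, SE 0.28, adjusted p = 4.7e-06).

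Emp2, the tetraspan membrane protein gene, was high in Apc deficient mice and low in the other groups. Its values were 5.75, 6.03, 5.36 and 5.22 in Brg1-Apc deficient mice and 9.43, 9.54 and 8.90 in Apc deficient mice. Brg1 deficient mice had 5.45, 3.77, 4.98 and 3.59, and control mice had 6.57, 6.61, 5.84 and 5.02. Brg1-Apc deficient arrays overlapped those of Brg1 deficient and of control mice. Emp2 was 9.72-fold higher in Apc deficient than in controls (log2 3.28, SE 0.43). Brg1-Apc deficient mice had 1.14 more than Brg1 deficient mice (SE 0.40, 95% interval 0.30 to 1.99), which did not pass over all probes (adjusted p = 0.127), and both means were under 5.90.

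Ly6d, the Ly6 surface protein gene, showed no rise with Apc loss that passed the test in mice without Brg1. Its brighter probe gave 6.69, 7.71, 7.77 and 6.49 in Brg1-Apc deficient mice and 8.51, 9.80 and 9.59 in Apc deficient mice. The same probe gave 7.44, 7.73, 7.56 and 7.54 in Brg1 deficient mice and 6.46, 6.50, 7.06 and 6.43 in control mice. Apc deficient arrays lay above all others, and the Brg1-Apc deficient arrays overlapped both groups with Apc. Ly6d was 6.46-fold higher in Apc deficient than in controls (log2 2.69, SE 0.34). Brg1-Apc deficient minus Brg1 deficient was -0.40 (SE 0.31, 95% interval -1.06 to 0.25, adjusted p = 0.6).

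The other Ly6d probe was dimmer and had the same order of groups. It gave 6.23, 6.83, 7.42 and 5.90 in Brg1-Apc deficient mice and 7.13, 8.87 and 8.69 in Apc deficient mice. It gave 6.52, 6.61, 6.91 and 7.18 in Brg1 deficient mice and 5.88, 6.12, 6.44 and 5.55 in control mice. On this probe 1 Brg1-Apc deficient array was above the lowest Apc deficient array. Its difference between Apc deficient and control mice was 2.23 (SE 0.40, 4.70-fold), and Brg1-Apc deficient minus Brg1 deficient was -0.21 (SE 0.37, adjusted p = 0.856).

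**Figure D1:**
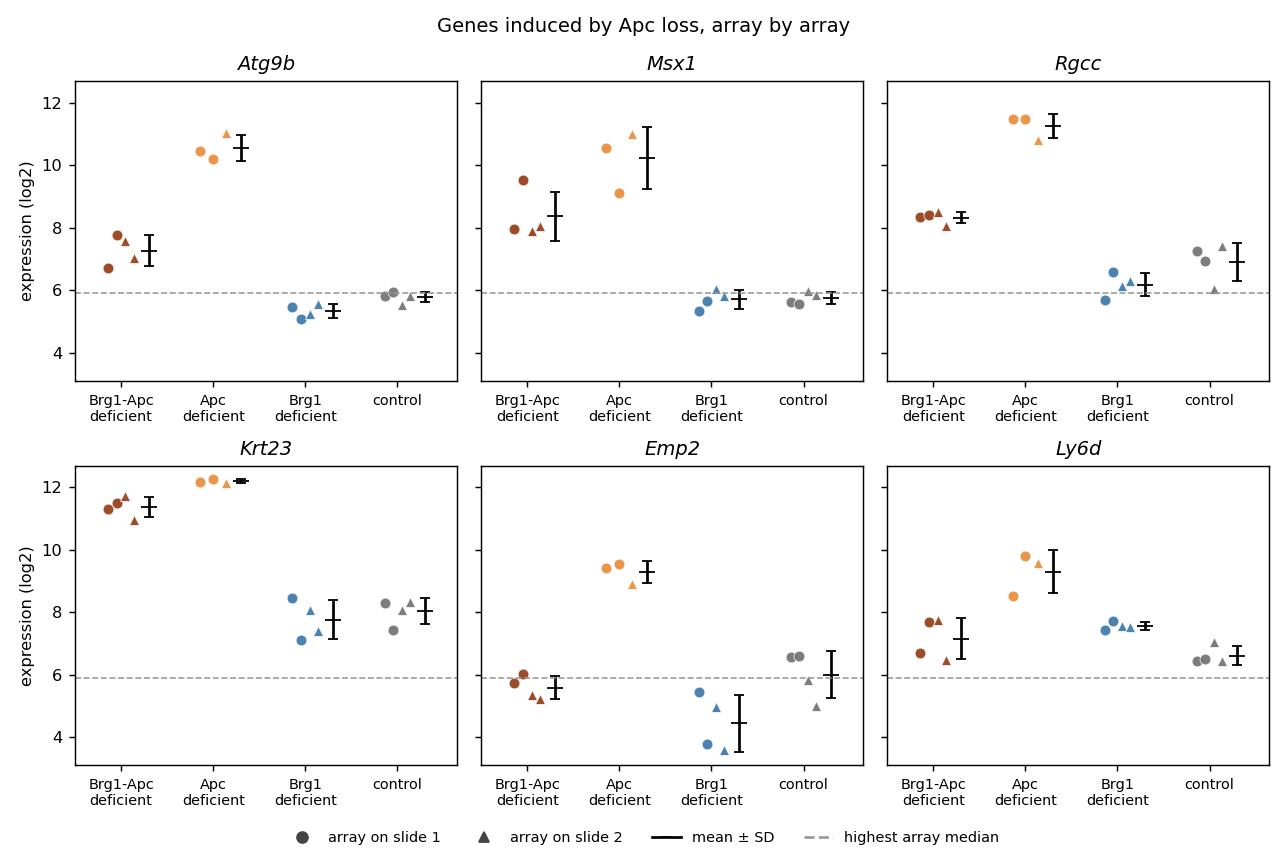
Expression (log2) of the 6 genes on each of the 15 arrays, with the brighter probe for Ly6d, circles for slide 1, triangles for slide 2, and bars for mean ± SD (n = 4, or 3 for Apc deficient). The dashed line is the highest array median, 5.90. Brg1-Apc deficient arrays of Krt23 sit at 10.95 to 11.71, all below the Apc deficient ones, and those of Emp2 at 5.22 to 6.03, among the arrays with Apc.

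The effect of Apc loss in mice without Brg1 was tested on arrays outside the Apc deficient minus control contrast. In Brg1-Apc deficient versus Brg1 deficient mice, 4 of the 6 genes rose (Krt23, Msx1, Rgcc and Atg9b) and Emp2 and Ly6d were not called. Among all genes 5.53% were called higher in this comparison and 0.946% lower. Of 20 other genes whose difference between Apc deficient and control mice was at least as high as that of Ly6d, 13 (65%) were called higher too, a share close to 4 of 6. The same 4 genes had groups that did not overlap, which was so, in the higher direction, for 7.15% of all genes. The median difference of the 6 genes was 2.04, and that of all genes was -0.03. Krt23 kept its size within each slide, at 3.62 on slide 1 and 3.59 on slide 2, and Msx1 was 3.25 on slide 1 and 2.05 on slide 2. Rgcc was 2.23 on slide 1 and 2.06 on slide 2, where it missed the threshold (adjusted p = 0.0842), and Atg9b was 1.97 and 1.90. The Emp2 difference passed when Brg1 deficient replicate 1 was left out (adjusted p = 0.0307).

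**Figure D2:**
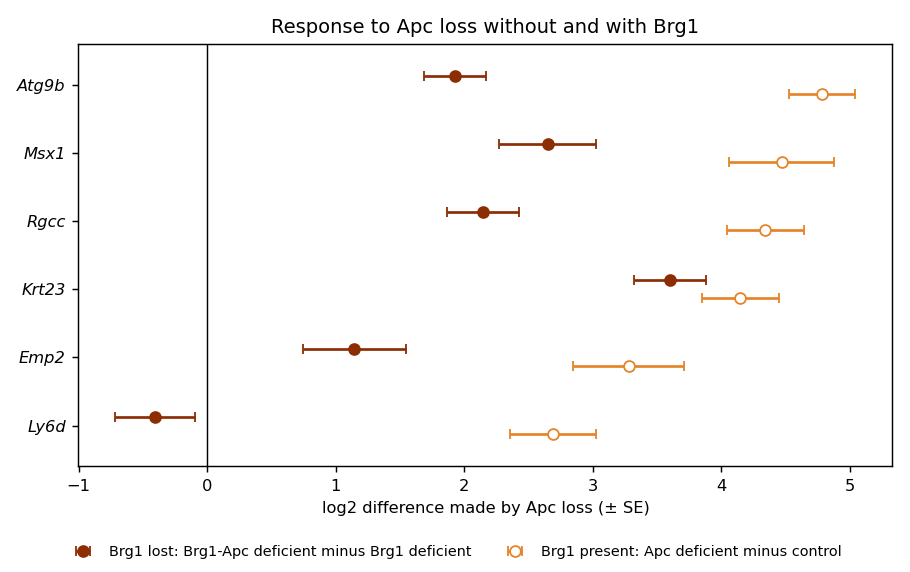
Log2 difference made by Apc loss for each of the 6 genes, with SE bars, where Brg1 was lost (filled points, Brg1-Apc deficient minus Brg1 deficient) and where it was present (open points, Apc deficient minus control). Krt23 has 3.60 against 4.15, whereas Ly6d has -0.40 against 2.69.

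Most of the 6 genes were lower where Brg1 was lost along with Apc than where Apc alone was lost, by 3.63-fold to 13-fold in the 5 that fell. In Brg1-Apc deficient versus Apc deficient mice 5 of 6 genes fell, where 3.89% of all genes were called lower and 3.92% higher. Of the same 20 other genes 13 (65%) were called lower as well. This comparison shares the Apc deficient arrays with the contrast that chose the genes, so genes picked for high values there are more likely to be lower here, and the count is a description. Emp2 was lower by 13-fold (log2 difference -3.70, SE 0.43, adjusted p = 9.95e-05) and Atg9b by 9.83-fold (-3.30, SE 0.26, adjusted p = 2.67e-06). Rgcc was lower by 7.62-fold (-2.93, SE 0.30, adjusted p = 2.84e-05) and Ly6d by 4.41-fold (-2.14, SE 0.34, adjusted p = 0.000932). On the other probe Ly6d fell by 1.64 (SE 0.40, adjusted p = 0.018).

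Msx1 and Krt23 had the smallest differences of the 6. Msx1 was lower by 3.63-fold (-1.86, SE 0.41, adjusted p = 0.0101) with overlapping arrays, and the call was lost without Apc deficient replicate 1 (adjusted p = 0.0552) or replicate 3 (0.0536). Its difference was -1.09 on slide 1 (adjusted p = 0.246) and -3.02 on slide 2, which held 1 Apc deficient array. Krt23 had 11.37 ± 0.33 in Brg1-Apc deficient and 12.19 ± 0.06 in Apc deficient mice (SD), a difference of -0.82 (SE 0.30, 95% interval -1.46 to -0.18) that was not called (adjusted p = 0.117) although the arrays did not overlap. Groups that did not overlap, with Brg1-Apc deficient lower, were found for 5 of the 6 genes, all but Msx1, and for 11.7% of all genes. The genes were picked for high values on these same Apc deficient arrays, which favours such a gap, so this count too is a description. On slide 1, where 2 Apc deficient arrays lay, Emp2 was -3.59, Atg9b -3.10, Rgcc -3.11 and Ly6d -1.96, all called, and Krt23 was -0.81. On slide 2, with 1 Apc deficient array, Emp2 was -3.61, Atg9b -3.72, Rgcc -2.53, Ly6d -2.47 and Krt23 -0.81. A lone Apc deficient array gives no spread of its own, so calls on slide 2 say nothing about stability.

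In Brg1 deficient versus control mice, 1 of 6 genes was called, Emp2, which fell to 4.45 ± 0.91 in Brg1 deficient mice, against 6.01 ± 0.75 in control mice (SD, difference -1.56, SE 0.40, adjusted p = 0.0452). Among all genes 2.5% were called lower and 0.82% higher. The Emp2 call was lost in 12 of the 15 repeats that left out 1 array, and its size is uncertain since Brg1 deficient mice were below 5.90. Ly6d had 7.57 ± 0.12 in Brg1 deficient and 6.61 ± 0.30 in control mice, a difference of 0.95 (SE 0.31, adjusted p = 0.12) with no overlap between the groups, which, in the higher direction, held for 1 of the 6 genes and 4.04% of all genes. It was called with the replicate number as a block (adjusted p = 0.0473) and with only these 2 groups in the fit (0.0418), where Emp2 was not called (0.162). On its other probe the difference was 0.81 (adjusted p = 0.295). Rgcc differed by -0.73 (SE 0.28, adjusted p = 0.197), and was called without control replicate 3 (adjusted p = 0.0385). Atg9b differed by -0.44 (SE 0.24, adjusted p = 0.399), Krt23 by -0.27 (SE 0.28, adjusted p = 0.692) and Msx1 by -0.04 (SE 0.38, adjusted p = 0.976). This comparison shares the control arrays with the contrast that chose the genes. For that contrast itself, Apc deficient versus control mice, 8.14% of all genes were called higher and 7.09% lower.

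The share of the rise kept without Brg1 was highest for Krt23 and next highest for Msx1. It is the Brg1-Apc deficient level above control as a percent of the Apc deficient level above control, both on the log2 scale, with a jackknife standard error over arrays. Krt23 kept 80.2% (SE 4.14) and Msx1 58.4% (SE 11.3). Rgcc kept 32.6% (SE 5.66), Atg9b 31.1% (SE 5.52) and Ly6d 20.5% (SE 13.4), and these 3 lay within their errors of each other. Emp2 had a share of -12.8% (SE 14.6), with a Brg1-Apc deficient mean at background and 0.42 below control. This share lay below that of Ly6d by more than either error, though both errors were wide. Msx1 was 74.2% on slide 1 and 40.7% on slide 2, and 49.7% without Brg1-Apc deficient replicate 2. Leaving out any 1 array kept Krt23 between 77.4% and 83.6%.

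Measured instead from the Brg1 deficient mice, so that the effect of Brg1 loss alone is taken out, Krt23 was again highest. The share was then 86.8% for Krt23 (SE 9.55), 59.3% for Msx1 (SE 11.9), 49.4% for Rgcc (SE 6.50) and 40.4% for Atg9b (SE 6.07). Second place was not settled, since Msx1 and Rgcc lay within their errors of each other. Msx1 had 76.7% on slide 1 and 40.3% on slide 2, where Rgcc had 51.0% and 50.3%. Without Brg1-Apc deficient replicate 2, Msx1 had 50.6%. Ly6d had -15.0% (SE 12.8). The value for Emp2 was 34.9% (SE 15.6), but both means behind it were at background and their difference was not called, so neither its size nor its place among the 6 is settled. On the linear scale, over control, the shares were lower, at 54.0% for Krt23, 24.1% for Msx1, 8.62% for Rgcc, 8.54% for Ly6d, 6.80% for Atg9b and -2.89% for Emp2. In fold terms, Brg1-Apc deficient mice were above control by 10.0-fold for Krt23, 6.10-fold for Msx1, 2.81-fold for Atg9b, 2.67-fold for Rgcc and 1.47-fold for Ly6d. Arrays lay wholly above control for the first 4 of these, and for 9.64% of all genes. The control arrays were part of the contrast that chose the genes, so this count is a description.

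**Figure D3:**
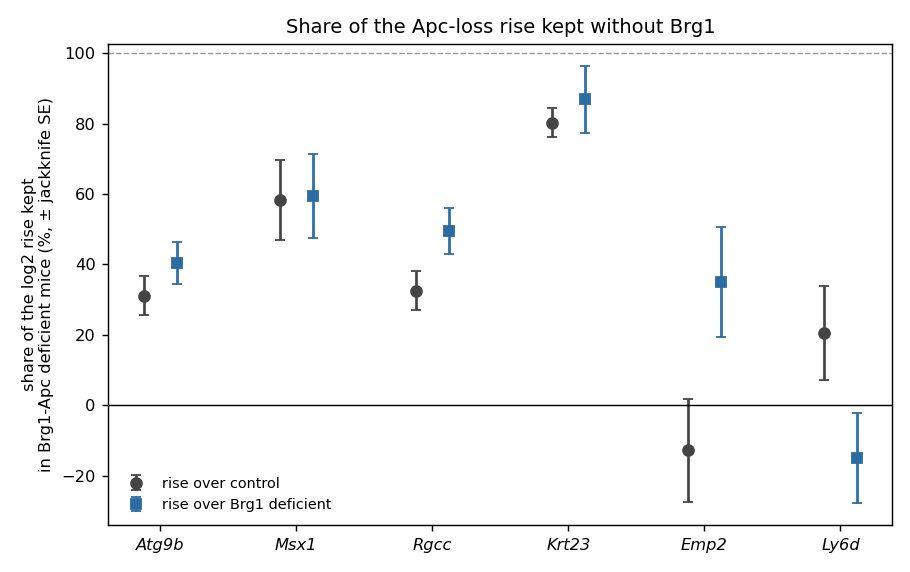
Share of the log2 rise with Apc loss that each of the 6 genes kept in Brg1-Apc deficient mice (percent, ± jackknife SE over arrays), as the level over control (circles) and over Brg1 deficient (squares), each as a percent of the Apc deficient level over control. The dashed line marks the full rise. Krt23 is highest on both, at 80.2% and 86.8%. The squares of Emp2 compare 2 means at background, so their height is uncertain.

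The Apc effect without Brg1, less the Apc effect with Brg1, was negative for all 6 genes and is given without a test, since it contains the contrast that chose them. It was -3.09 for Ly6d (SE 0.46), -2.85 for Atg9b (SE 0.35), -2.20 for Rgcc (SE 0.41), -2.14 for Emp2 (SE 0.59), -1.82 for Msx1 (SE 0.56) and -0.55 for Krt23 (SE 0.41). The Emp2 value rests on Brg1-Apc deficient and Brg1 deficient means at background, so its size and place are uncertain. Those of Atg9b and Msx1 use Brg1 deficient and control means at background. For the 20 other genes that rose as much with Apc loss, the median share kept was 42.5% over control (quartiles 21.5% and 61.9%), beside 31.8% for the 6 genes, and 45.8% over Brg1 deficient (quartiles 37.4% and 57.5%), beside 44.9%. Of these 20, 18 kept less than Krt23 on either measure, and 14 over control and 15 over Brg1 deficient kept less than Msx1. None of the 20 kept less than Emp2 over control, and none kept less than Ly6d over Brg1 deficient.

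Pairwise Pearson correlations of the 6 genes over the 15 arrays ran from 0.56 (Ly6d with Krt23) to 0.97 (Atg9b with Rgcc). All 6 were chosen to be high in the Apc deficient arrays, which makes their profiles alike over these same arrays. Once each array was set against its own group mean, the correlations ran from -0.22 (Rgcc with Emp2) to 0.57 (Atg9b with Msx1). These correlations are descriptions, and arrays of a group share RNA and array quality between genes. Among the 8675 genes above background in at least 1 group, the gene most like the mean profile of the 6 was Etv4, an ETS family transcription factor (r = 0.988). Edn1, which encodes the peptide endothelin-1 (0.975), Map1s (0.966), the BMP ligand gene Bmp7 (0.963) and the kinase gene Dyrk3 (0.963) came next. Etv4 had 6.90 ± 0.58 in Brg1-Apc deficient, 9.19 ± 0.30 in Apc deficient, 5.42 ± 0.23 in Brg1 deficient and 5.62 ± 0.17 in control mice (SD). It fell by 2.29 in Brg1-Apc deficient versus Apc deficient mice (adjusted p = 0.000102) and rose by 1.48 in Brg1-Apc deficient versus Brg1 deficient mice (adjusted p = 0.00167). Etv4 was picked for its profile over these same arrays, which favours such differences, so they are descriptions.

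**Figure D4:**
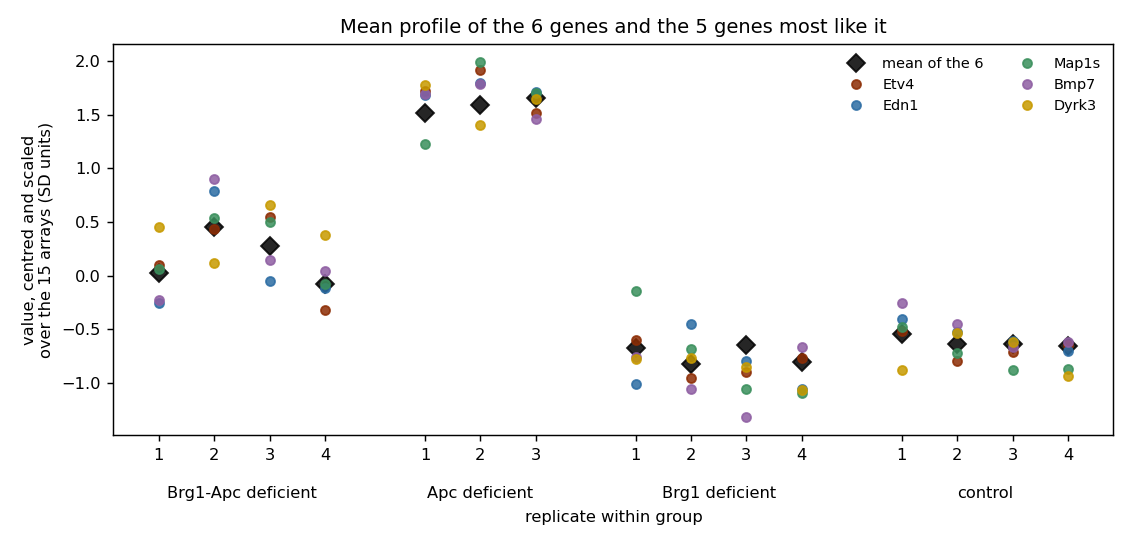
Mean of the 6 genes and the 5 genes with the most similar profile, each centred and scaled over the 15 arrays (vertical axis, SD units), by group and replicate. Each point is 1 array. All 6 profiles are highest in the 3 Apc deficient arrays and on average intermediate in the Brg1-Apc deficient arrays, and Etv4 has r = 0.988 with the mean.

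The closest profiles of single genes also differed. Atg9b was most like Etv4 (r = 0.976) and Edn1 (0.966), and Rgcc was most like Smo, the hedgehog signal transducer (0.966), and Etv4 (0.964). Krt23 was most like Prmt5, an arginine methyltransferase gene (0.977), and Tead2, a partner of the YAP coactivator (0.971). Prmt5 was 2.10 higher in Apc deficient mice than in controls, and its difference between Brg1-Apc deficient and Apc deficient mice was not called (-0.24, adjusted p = 0.656). Prmt5 was picked for its likeness to Krt23 over these arrays, so its values too are descriptions. Msx1 was closest to Tead2 (0.954) and D10Wsu102e (0.947). Emp2 was closest to Krt18, a keratin of simple epithelia (0.975), and Cd276, a B7 family surface protein (0.962). Ly6d was closest to Fhdc1 (0.950) and to the MAP kinase phosphatase gene Dusp4 (0.908).

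The counts for relatives of the 6 genes can be read beside all genes, of which 8.14% were called higher and 7.09% lower with Apc loss, and 3.92% higher and 3.89% lower in Brg1-Apc deficient versus Apc deficient mice. In Brg1-Apc deficient versus Brg1 deficient mice 5.53% were called higher and 0.946% lower. In Brg1 deficient versus control mice 0.82% were called higher and 2.5% lower. Most lists hold genes at background in all groups, where a difference could not be measured. Of the 14 measured Msx, Dlx and BMP pathway genes, 8 of them at background in all groups, 1 rose and 2 fell in Apc deficient versus control mice (median 0.07). Bmp7 rose by 2.20 with Apc loss (adjusted p = 2.88e-05) and fell by 1.47 in Brg1-Apc deficient versus Apc deficient mice (adjusted p = 0.00188). Smad6, an inhibitor of BMP signalling, went the other way in both (-1.24 and 1.69), and the ligand gene Bmp4 fell by 1.52 with Apc loss. Msx2, the closest relative of Msx1, was at background in every group. Of this list 1 was called higher and 1 lower in Brg1-Apc deficient versus Apc deficient mice, 1 higher in Brg1-Apc deficient versus Brg1 deficient mice, and 0 in Brg1 deficient versus control mice (1 at an unadjusted p under 0.05).

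Among 27 measured autophagy genes, 4 of them at background in all groups, 3 rose and 2 fell with Apc loss (median 0.06), and 1 rose and 2 fell in Brg1-Apc deficient versus Apc deficient mice (median -0.10). Gabarapl1, an ATG8 family protein gene of the autophagosome membrane, moved in both comparisons. It had means of 6.96 in Brg1-Apc deficient, 8.67 in Apc deficient, 6.81 in Brg1 deficient and 6.88 in control mice. It rose by 1.79 with Apc loss (adjusted p = 0.000383) and fell by 1.71 in Brg1-Apc deficient versus Apc deficient mice (adjusted p = 0.00145). Sqstm1, the autophagy receptor p62, fell by 1.18 (adjusted p = 0.0433) and Atg10 was higher by 1.43 (adjusted p = 0.00024) in the same comparison. In Brg1-Apc deficient versus Brg1 deficient mice 3 genes of the list rose, and in Brg1 deficient versus control mice 1 rose and 1 fell.

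Of 24 measured Ly6 family genes, 18 of them at background in all groups, 2 rose with Apc loss and 2 fell in Brg1-Apc deficient versus Apc deficient mice. Ly6e had 8.20 ± 0.63 in Brg1-Apc deficient, 11.57 ± 0.49 in Apc deficient, 9.11 ± 1.37 in Brg1 deficient and 9.80 ± 0.47 in control mice (SD). It fell by 3.37 in Brg1-Apc deficient versus Apc deficient mice (SE 0.55, adjusted p = 0.00123) and rose by 1.76 with Apc loss (adjusted p = 0.0405). Ly6c1 fell by 2.71 in Brg1-Apc deficient versus Apc deficient mice (adjusted p = 0.0111), and Plaur, the urokinase receptor gene, rose by 1.18 with Apc loss (adjusted p = 0.0048). In Brg1 deficient versus control mice 2 of the family rose and 1 fell, and in Brg1-Apc deficient versus Brg1 deficient mice 0 were called (2 at an unadjusted p under 0.05).

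Of 22 measured type I keratins, 16 of them at background in all groups, 1 rose and 3 fell with Apc loss. Krt18 rose by 1.78 (adjusted p = 9.99e-05) and fell by 1.76 in Brg1-Apc deficient versus Apc deficient mice (adjusted p = 0.000253), where Krt23 differed by -0.82. Krt20, a keratin of mature enterocytes, had means of 12.87 in Brg1-Apc deficient, 12.10 in Apc deficient, 13.40 in Brg1 deficient and 13.43 in control mice. It fell by 1.33 with Apc loss (adjusted p = 0.000536) and rose by 0.77 in Brg1-Apc deficient versus Apc deficient mice (adjusted p = 0.0428). These 2 were the list's calls in that comparison, and 0 of the list were called in either comparison that holds Brg1 deficient mice (4 in each at an unadjusted p under 0.05). The Krt19 difference with Apc loss was -0.29 (adjusted p = 0.694).

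Of the 5 measured relatives of Emp2, 2 of them at background in all groups, 2 fell with Apc loss and 0 rose. Pmp22, the peripheral myelin protein gene, had means of 8.53 in Brg1-Apc deficient, 8.80 in Apc deficient, 8.47 in Brg1 deficient and 11.46 in control mice, and fell by 2.66 with Apc loss (adjusted p = 0.000372) and fell by 2.99 with Brg1 loss alone (adjusted p = 0.000369). Emp3 fell by 0.88 with Apc loss (adjusted p = 0.0439), and Emp1 differed by -0.67 (adjusted p = 0.592). None of the 5 was called in Brg1-Apc deficient versus Apc deficient mice (0 at an unadjusted p under 0.05) or versus Brg1 deficient mice (1 at that level). Of 9 measured CDK1 and complement genes listed beside Rgcc, Cdk1 rose by 1.93 with Apc loss (adjusted p = 0.0398) and differed by -1.98 in Brg1-Apc deficient versus Apc deficient mice (adjusted p = 0.0539). Cd55, which restrains complement on cell surfaces, was higher with Brg1 loss, by 1.65 in Brg1-Apc deficient versus Apc deficient mice (adjusted p = 0.0118) and by 1.96 in Brg1 deficient versus control mice (adjusted p = 0.00404). In Brg1-Apc deficient versus Brg1 deficient mice 0 of these 9 were called (3 at an unadjusted p under 0.05).

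**Figure D5:**
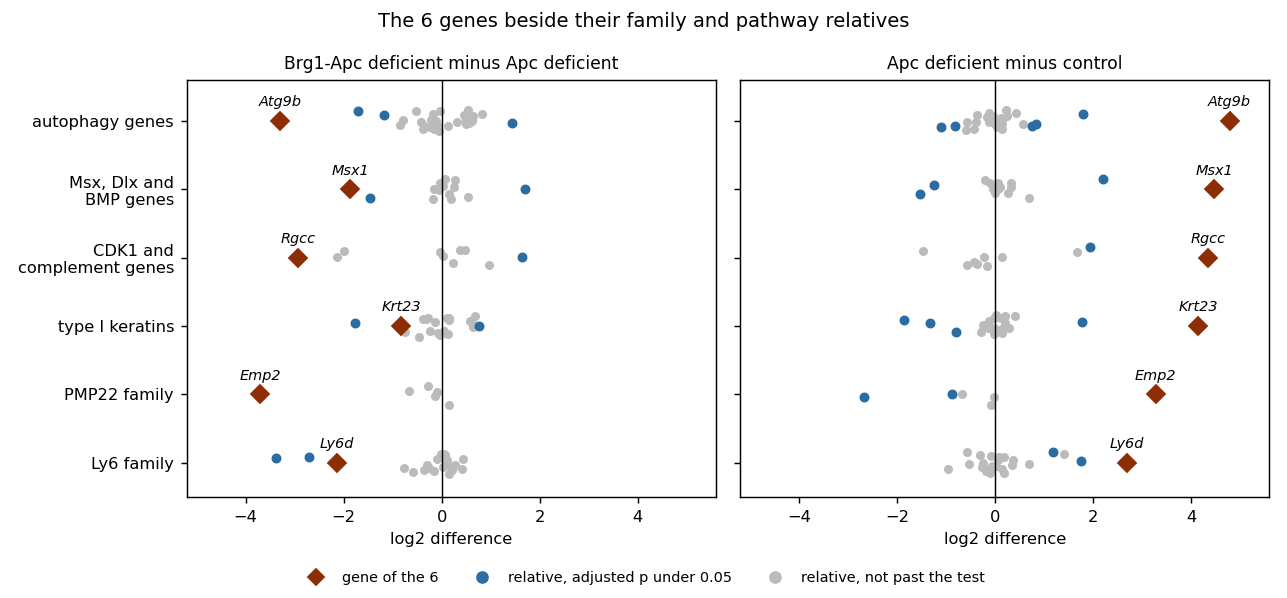
Log2 difference of the 6 genes (diamonds) and of the measured relatives of each (points, blue where the adjusted p is under 0.05), in Brg1-Apc deficient minus Apc deficient mice on the left and Apc deficient minus control mice on the right, where the 6 genes were chosen. Emp2, at -3.70 on the left and 3.28 on the right, stands apart from its 5 relatives, 2 of them at background in all groups. The left panel shares the Apc deficient arrays with the contrast that chose the 6 genes, so both panels favour such a gap. Ly6e and Ly6c1 lie beyond Ly6d on the left.

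Of 22 measured Wnt target genes, 5 of them at background in all groups, 14 rose with Apc loss and 0 fell (median 1.58, against -0.03 for all genes). In Brg1-Apc deficient versus Apc deficient mice 6 fell and 0 rose (median -0.57), in Brg1-Apc deficient versus Brg1 deficient mice 9 rose and 0 fell (median 0.30), and in Brg1 deficient versus control mice 5 fell and 0 rose (median -0.08). Sp5, a transcription factor gene and Wnt target, had 9.57 ± 0.22 in Brg1-Apc deficient, 9.97 ± 0.46 in Apc deficient, 6.04 ± 0.41 in Brg1 deficient and 7.65 ± 0.26 in control mice (SD). Like Krt23, it was not called in Brg1-Apc deficient versus Apc deficient mice (-0.40, adjusted p = 0.432) and rose in Brg1-Apc deficient versus Brg1 deficient mice (3.53, adjusted p = 1.07e-06). Sp5 also fell in Brg1 deficient versus control mice (-1.62, adjusted p = 0.00105), where Krt23 was not called (-0.27, adjusted p = 0.692). Tnfrsf19 (-1.23, adjusted p = 0.00699) and the adhesion receptor gene Cd44 (-1.28, adjusted p = 0.00663, with 1 of its other probes of opposite sign) were lower in Brg1-Apc deficient than in Apc deficient mice, as Msx1 was. Lgr5, the crypt stem cell receptor gene, fell by 1.83 (adjusted p = 0.000362) and the growth regulator gene Myc fell by 1.93 (adjusted p = 0.00115) in that comparison. Like Ly6d, they were not called in Brg1-Apc deficient versus Brg1 deficient mice (0.05, adjusted p = 0.96 for Lgr5, and -0.33, adjusted p = 0.662 for Myc).

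Of 16 measured genes of fetal and regenerating gut epithelium, 5 of them at background in all groups, 3 rose and 1 fell with Apc loss, and 1 rose and 4 fell in Brg1-Apc deficient versus Apc deficient mice. Krt7 had means of 8.56 in Brg1-Apc deficient, 10.66 in Apc deficient, 7.59 in Brg1 deficient and 9.09 in control mice, and fell by 2.10 in Brg1-Apc deficient versus Apc deficient mice (adjusted p = 2.89e-05). Anxa3, an annexin gene, fell by 2.22 and Il1rn, the interleukin-1 receptor antagonist gene, fell by 1.42 in that comparison (another of its 3 probes had the opposite sign), while the cytokine gene Il33 was higher by 2.58. This list had 1 rise in Brg1-Apc deficient versus Brg1 deficient mice, and 1 rise and 1 fall in Brg1 deficient versus control mice.

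The scraped tissue can hold other cells, so marker genes were read beside these results. The 11 measured markers of gut epithelium averaged 11.63 to 12.21 on single arrays, in all groups. Of 17 markers of stratified squamous epithelium, a tissue where Ly6d is expressed, 14 were at background in all groups, Krt5, Krt14 and Trp63 among them, and 0 were called by limma in any comparison (1 to 3 at an unadjusted p under 0.05). Krt10 of this list was above background, with means of 7.83 in Brg1-Apc deficient, 8.57 in Apc deficient, 7.36 in Brg1 deficient and 8.15 in control mice. Of 10 B and plasma cell markers, read because Ly6d marks early B cells in the mouse, 5 were at background in all groups, Pax5 and Ms4a1 among them, and 0 were called (0 to 2 at that level). Mzb1, a gene of plasma cells, was above background, with means of 8.43 in Brg1-Apc deficient, 7.50 in Apc deficient, 9.06 in Brg1 deficient and 8.69 in control mice, and so were Cd79a and Cd79b, at 6.08 to 7.02. The array means of this list lay between 5.59 and 6.72. T cell and intraepithelial lymphocyte markers moved with the groups: array means were 7.21 to 7.82 in Brg1-Apc deficient, 6.34 to 6.81 in Apc deficient, 7.45 to 8.33 in Brg1 deficient and 7.34 to 8.30 in control mice, with 6 of 11 lower with Apc loss and 5 higher in Brg1-Apc deficient versus Apc deficient mice. Paneth cell markers, 6 measured, averaged 9.15 to 10.16 in Brg1-Apc deficient, 10.58 to 10.94 in Apc deficient, 8.09 to 10.03 in Brg1 deficient and 8.93 to 10.44 in control mice, with 2 higher with Apc loss, 1 higher in Brg1-Apc deficient versus Brg1 deficient mice and 0 called otherwise (2 at that level in each of the other comparisons).

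Of 11 fibroblast markers 1 was lower with Apc loss, and of 9 smooth muscle markers 1 was lower with Apc loss and 1 higher in Brg1-Apc deficient versus Apc deficient mice. Smooth muscle array means were 6.10 to 7.45 in Brg1-Apc deficient, 6.61 to 6.98 in Apc deficient, 6.46 to 8.01 in Brg1 deficient and 6.58 to 9.42 in control mice. Of 9 endothelial markers 1, Esam, was higher in both comparisons for Apc loss, and of 11 pancreatic acinar markers 0 were called (0 at an unadjusted p under 0.05), though 1 control array reached a mean of 10.27. Of the 11 gut epithelium markers, 2 rose and 3 fell with Apc loss, 2 rose and 2 fell in Brg1-Apc deficient versus Apc deficient mice, and 1 fell in Brg1-Apc deficient versus Brg1 deficient mice. The part of lymphocyte, Paneth and other marker differences in the values of the 6 genes was not tested.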

How the data were processed

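Total RNA of jejunal epithelium was extracted with Trizol and DNase-treated columns, amplified with a TotalPrep-96 kit and measured on single-colour bead arrays, per the labels' protocols. The authors deposited log2 values for 25695 probes. Normalization: not given in the sources used here. The values were used as deposited, with no detection filter. Groups and replicates come from the labels, which describe cohorts of mice. Of the probes, 23976 carried 1 symbol, 1719 were unnamed here and 0 carried several. Where a gene had several probes, the one brightest on average over the 15 arrays was used.

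The limma package (version 3.58.1, R 4.3.3) fitted a mean per group over all 15 arrays (11 residual degrees of freedom, two-sided tests, adjusted p under 0.05 over all probes). The number of arrays limits the precision. Intervals are at 95% and come from the same fit. Percentages of genes called are over 16592 genes. The 6 genes and all lists were chosen with earlier results of these data known. Named genes were the 6 members, their closest profiles, listed relatives, and up to 3 genes of each list with the smallest p in Apc deficient against control or Brg1-Apc deficient against Apc deficient mice. Alternatives were a block for the slide or for the replicate number, each slide alone, only the 2 groups compared, quantile normalization, centring on medians, only probes above the median level, a trended and robust prior, array weights, leaving out each array or 3 arrays, and the other Ly6d probe. Outlying arrays within a group were looked for with Dixon's rule (critical value 0.829 for 4 arrays). The fit was checked on simulated data. Figures used Python 3.11.15 with matplotlib 3.10.9.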

Additional observations from a re-analysis of the deposited data

Results flagged for a closer look

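Within groups of 4 arrays, 2 values stood far from the other 3, among 21 groups tested over the 7 probes, and chance flags about 1 in 20. Msx1 in Brg1-Apc deficient replicate 2 was 9.53, where the other 3 Brg1-Apc deficient arrays lay between 7.90 and 8.06, a gap of 0.90 of the group's range. Without that array Msx1 fell by 2.25 in Brg1-Apc deficient versus Apc deficient mice (adjusted p = 0.00143) and rose by 2.26 in Brg1-Apc deficient versus Brg1 deficient mice (adjusted p = 0.00132). The brighter Ly6d probe in control replicate 3 was 7.06, where the other 3 control arrays lay between 6.43 and 6.50, also 0.90 of the range. The other Ly6d probe was 6.44 on that array and was not set apart in this way.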

How the results depend on the processing

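The direction of all 6 genes in Brg1-Apc deficient versus Apc deficient mice and against Brg1 deficient mice was the same under every alternative run. Among the 6 genes, Brg1 deficient versus control was the least stable comparison: its 1 call became 0 on slide 1 alone, on slide 2 alone, with quantile normalization, with a trended and robust prior and with Brg1 deficient replicate 4 and control replicates 1 and 4 left out (3 arrays). With only the 2 groups in the fit Emp2 lost its call (adjusted p = 0.162) and Ly6d gained one. The main fit did not take the replicate numbers to pair the arrays, and whether they do is not settled. Deviations from group means correlated above 0.1 in 8 of 21 same-numbered pairs (range -0.18 to 0.27, median 0.06). They did so less often in pairs with other numbers, 8 of 63 (median -0.0064), and 6 of 15 arrays were closest to an array of their own number in another group. With the replicate number as a block, 2 of the 6 genes were called in Brg1 deficient versus control mice, Ly6d among them (adjusted p = 0.0473), and Emp2 was called in Brg1-Apc deficient versus Brg1 deficient mice (adjusted p = 0.044).

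With only the 2 groups compared, Krt23 was called in Brg1-Apc deficient versus Apc deficient mice (adjusted p = 0.0367), and Ly6d in Brg1 deficient versus control mice (0.0418). Signs turned only in Brg1 deficient versus control: Krt23 was 0.056 with quantile normalization and 0.13 with 3 arrays left out, and Msx1 was 0.021 on slide 2 alone and between -0.15 and 0.086 as single arrays were left out. Slide 2 alone held 1 Apc deficient array, so calls against that group say nothing about stability there. On it the median share kept over Brg1 deficient was 37.9% (44.9% with all arrays). The median difference of the Apc effect was -2.75 (-2.17 with all arrays).

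Probes called in Brg1-Apc deficient versus Brg1 deficient mice numbered 1384 with all arrays, 762 on slide 1 alone, 293 on slide 2 alone, 581 with only the 2 groups and 897 to 2399 as single arrays were left out. In Brg1-Apc deficient versus Apc deficient mice they numbered 1844, with 2 on slide 2 alone, 3022 with array weights and 610 to 2944 as single arrays were left out. In Brg1 deficient versus control mice they numbered 721, with 160 on slide 1 alone, 60 on slide 2 alone, 387 with only the 2 groups, 230 with 3 arrays left out and 361 to 1143 as single arrays were left out. In Apc deficient versus control mice they numbered 3390, with 1952 on slide 1 alone, 204 on slide 2 alone and 2044 to 4327 as single arrays were left out. Leaving out single arrays gave 4 to 5 of the 6 genes called in Brg1-Apc deficient versus Brg1 deficient mice, 4 to 5 against Apc deficient mice, and 0 to 1 in Brg1 deficient versus control mice. The causes were not tested, beyond each slide holding fewer arrays.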
